A study of Mus musculus with 4 samples.

Results

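Crypt antimicrobial and deep secretory proteins are described here across 4 single-cell RNA libraries of mouse colonic organoids. The members were 10 genes chosen by symbol, namely Reg4, Ang4, Lyz1, Mptx1, Sval1, Clps, Reg3b, Reg3g, Retnlb and Pla2g2a. Of these, 9 had a row among the 30360 genes of the table, and Pla2g2a was not analysed here. The organoids were grown from the distal colon of 16-week-old wildtype or Tnfr2-/- mice, which lack TNF receptor 2, a receptor for tumor necrosis factor (TNF). After passage 5, cultures either stayed untreated or were exposed to TNF (20 ng/ml), starting on day 1 and ending on day 6. Cells were harvested on day 7 and dead cells were removed by Annexin V. Values are listed in the library order untreated wildtype, TNF-treated wildtype, untreated Tnfr2-/-, TNF-treated Tnfr2-/-, unless another order is given. Each of the 4 groups was 1 culture and 1 library, so no difference between groups below has a replicate check, and conditions were not tested. The intervals given are exact 95% intervals that cover counting error only.

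In the colon, the base of the crypt holds deep secretory cells, goblet-lineage cells that express Reg4 and occupy the place that Paneth cells take in the small intestine. They release proteins that bind or kill bacteria and support neighbouring stem cells. Lyz1 (lysozyme) cuts the bacterial cell wall, Ang4 is an RNase-family antimicrobial protein, and Reg4, Reg3b and Reg3g are secreted C-type lectins of the Reg family. Mptx1 is a pentraxin-like mucosal protein, Clps is the colipase that anchors lipase to fat droplets, and Retnlb is a goblet cell cytokine-like protein of the resistin family. Sval1 belongs to the seminal vesicle antigen-like family.

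The 4 libraries held 6155 cells, of which 4172 carried an epithelial class of the deposited annotation, and 980 to 2589 cells per library. Epithelial cells had median depths of 30306 to 41057 unique molecular identifiers (UMIs, each counting 1 captured RNA molecule) per library. Tnfrsf1b, the gene of TNF receptor 2, stood at 4.17 UMIs per 1000000 UMIs of the same cells (CPM) in wildtype untreated epithelium, 12.1 with TNF, 1.82 in Tnfr2-/- untreated and 6.89 in Tnfr2-/- with TNF. The libraries were made from 3' ends, and which part of the gene was deleted is not given in the labels, so this check was not decisive. The paper reports that qPCR found none of this transcript in Tnfr2-/- colonoids of a validation cohort. Xist stood at 558 and 683 CPM in the wildtype libraries and at 0.158 and 0.101 CPM in the Tnfr2-/- libraries, so genotype and this difference between the cultures cannot be told apart. Only 3 barcodes occurred in more than 1 library. Immune markers summed to 2.96 to 20.4 CPM in epithelial cells, with Ptprc, Adgre1, Cd3e and Lyz2 at 0 in the Tnfr2-/- TNF library, where the sum was highest. In the same 4 libraries mesenchymal markers summed to 5.49 to 31.5 CPM.

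Over all epithelial cells, 6 members stood at 17.8 CPM or more in every library and the other 3 at 11.7 CPM or less. Summed over cells in this way, fewer cells of a type and less RNA per cell cannot be told apart. Reg4 stood at 186 CPM (182 to 189) in wildtype untreated, 213 (209 to 218) in wildtype TNF, 112 (109 to 115) in Tnfr2-/- untreated and 32.3 (30.5 to 34.1) in Tnfr2-/- TNF organoids. Lyz1 stood at 277, 367, 286 and 38.1 CPM in the same order. Both genes were thus near their untreated level in the TNF-treated wildtype library and lowest in the TNF-treated Tnfr2-/- library.

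Ang4 stood at 62.4 CPM (60.2 to 64.6) in wildtype untreated, 901 (891 to 910) in wildtype TNF, 79.6 (77.2 to 82.1) in Tnfr2-/- untreated and 48.8 (46.7 to 51.0) in Tnfr2-/- TNF epithelium. Clps stood at 17.8, 150, 17.8 and 28.5 CPM, and Sval1 at 548, 1191, 323 and 265 CPM. In these 3 genes, as in Reg4 and Lyz1, the TNF-treated wildtype library was the highest. Mptx1 instead differed by genotype in this sum over all epithelial cells. It stood at 109 CPM in both wildtype libraries, and at 19.0 (17.8 to 20.2) CPM in untreated and 20.8 (19.4 to 22.3) CPM in TNF-treated Tnfr2-/- organoids, with overlapping intervals. Within the class Secretory-Reg4-Spdef-Lyz1, described below, Mptx1 also differed with TNF, at 1722 CPM in untreated and 560 CPM in TNF-treated wildtype cells.

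**Figure D1:**
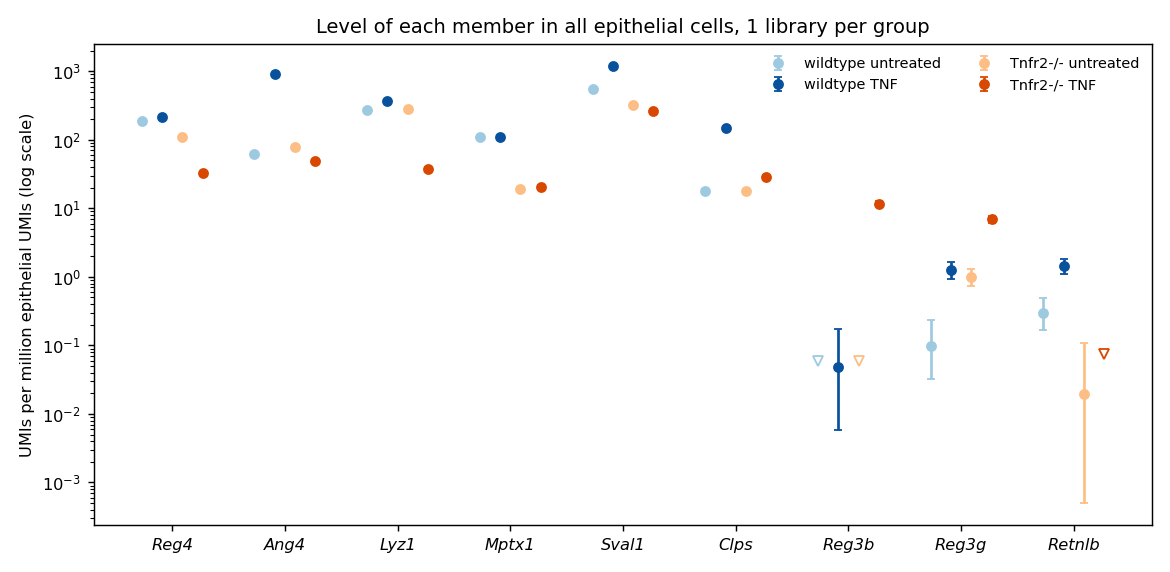
Level of each member in all epithelial cells of each library, in CPM on a log axis; points are the 4 libraries, bars are exact 95% intervals of counting error, and open triangles mark libraries with no UMI at the level that 3 counts would give. Ang4 stood at 901 CPM in the wildtype TNF library and between 48.8 and 79.6 CPM in the other 3, while Reg3b reached 11.7 CPM only in the Tnfr2-/- TNF library.

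These UMIs came from few cells. The 5 cells with most UMIs of the gene held 17.1 to 33.5% of the Reg4 UMIs of a library, 36.1 to 49.8% of the Lyz1 UMIs and 48.6 to 66.4% of the Mptx1 UMIs. For Ang4 the share was 18.6% in the wildtype TNF library and 45.3 to 62.6% in the other 3. The highest cell carried 2611 Lyz1 UMIs, in wildtype TNF organoids. With those 5 cells left out of each library, all 12 differences of at least 2-fold given below stayed at least 2-fold in the same direction.

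Differences were taken as log2(CPM + 1) between libraries, for genes with at least 20 CPM in either library of the pair, and a gene was counted as differing at 2-fold or more. Between the untreated genotypes, 5 members could be counted and 1 of them, Mptx1, was at least 2-fold lower in Tnfr2-/- organoids, against 3.59% of the 6021 genes counted. Higher by 2-fold were 0 members against 2.42% of genes. Mptx1 differed by -2.46 on the log2 scale, Sval1 by -0.76, Reg4 by -0.73, Ang4 by 0.35 (-0.19 without the 5 highest cells of each library) and Lyz1 by 0.05. The small Lyz1 value turned to -0.05 with TMM scaling. Within the 3 progenitor classes alone it was -0.95, and Reg4 and Sval1 passed 2-fold there, at -1.23 and -2.15. Clps was under the minimum level in both libraries, at 17.8 CPM each.

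With TNF in both genotypes, the 6 members counted were all at least 2-fold lower in the Tnfr2-/- library, where 6.37% of the 6073 genes were lower and 5.04% higher. Ang4 differed most, by -4.18 on the log2 scale, followed by Lyz1 at -3.23, Reg4 at -2.69, Clps at -2.36, Mptx1 at -2.34 and Sval1 at -2.16. The median of all genes in this pair was -0.10. Within the 3 progenitor classes alone none of the 6 was 2-fold lower. The difference turned to 0.96 for Lyz1, 0.76 for Sval1, 0.74 for Clps and 0.24 for Reg4, and was -0.66 for Ang4 and -0.58 for Mptx1. In the Tnfr2-/- TNF library cells with secretory markers mostly bore a progenitor name, as described further on. Mptx1 was the only member lower by 2-fold in both genotype pairs, against 1.41% of 5663 genes, and 0 members were higher in both, against 1.13%.

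TNF and untreated libraries were compared within each genotype, which uses the same 4 libraries again. In wildtype organoids, 3 of 6 members were higher with TNF, against 2.54% of 5833 genes, and 0 were lower, against 1.08%. The 3 were Ang4, at 3.83 on the log2 scale (14.4-fold in CPM), Clps at 3.01 (8.44-fold) and Sval1 at 1.12 (2.17-fold). Lyz1 differed by 0.41, Reg4 by 0.20 and Mptx1 by -0.01. The Sval1 difference was -0.34 within progenitor classes, -0.34 with equal weights for classes and -0.067 in the marker-chosen cells described further on. Lyz1 and Reg4 turned to -2.09 and -1.29 within progenitor classes.

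In Tnfr2-/- organoids, 2 of 6 members were lower with TNF, against 7.81% of 6143 genes, and 0 were higher, against 5.55%. Lyz1 differed by -2.88 on the log2 scale and Reg4 by -1.76. Ang4 differed by -0.69, Sval1 by -0.28, Mptx1 by 0.12 and Clps by 0.65. Within progenitor classes neither call held, with Lyz1 at -0.19 and Reg4 at 0.18, and the other 4 were higher with TNF, by 1.70 for Ang4, 2.58 for Sval1, 3.21 for Mptx1 and 2.76 for Clps. With equal weights for classes Lyz1 and Reg4 turned to 1.18 and 1.10. No member was at least 2-fold higher in both genotypes with TNF, against 0.92% of 5545 genes, and none was lower in both, against 0.0721%.

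Shares of cells were compared at equal depth. With every cell thinned to 5000 UMIs, Ang4 was found in 3.32% (2.33 to 4.56) of wildtype untreated epithelial cells, 13.7% (11.5 to 16.2) of those given TNF, 3.33% (2.31 to 4.65) of untreated Tnfr2-/- cells and 2.84% (1.83 to 4.19) of TNF-treated Tnfr2-/- cells. Lyz1 was found in 6.45, 9.05, 8.79 and 4.61% of cells in that order. Thinning left out 43, 290, 33 and 12 shallower epithelial cells, and unthinned the Ang4 shares were 5.67, 39.3, 5.96 and 4.08%. In the wildtype TNF library this left out most of the class Secretory-Reg4-Ang4, described below, with 246 cells at a median of 1957.5 UMIs. Cells with at least 1000 CPM and 3 UMIs of Ang4 numbered 331 in that library and 91 without the class. The thinned and unthinned shares there thus differ in the cells used as well as in depth.

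Free RNA sets a background for such shares, and mesenchymal cells should lack these genes. In the wildtype TNF library, 2.01% (0.742 to 4.33) of 298 thinned mesenchymal cells had an Ang4 UMI, at a median depth of 48633 UMIs before thinning against 30306 in epithelium. In wildtype untreated mesenchyme the Ang4 share was 0.282% of 1417 cells, and in the Tnfr2-/- libraries it was 0 of 86 and 0 of 120 cells, which allow shares of up to 3.49% and 2.50%. The 2.84% of Tnfr2-/- TNF epithelial cells lie close to what 0 of 120 cells allows. That limit is wide because few mesenchymal cells were measured. Before thinning, 35 epithelial cells of that library held 1942 Ang4 UMIs, with 297 in 1 cell. The part of free RNA in these cells was not tested.

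By deposited class, the UMIs of 6 members sat mostly in 1 small class in 3 of the 4 libraries. That class is named Secretory-Reg4-Spdef-Lyz1 and had 73, 111, 63 and 8 cells in library order. Since its name and its clustering use these genes, levels by class are a description only. It held 79.2% of the epithelial Reg4 UMIs in wildtype untreated, 74.7% in wildtype TNF and 78.5% in Tnfr2-/- untreated organoids, and 10.9% in Tnfr2-/- TNF organoids. For Lyz1 the shares were 82.6, 96.0, 86.2 and 8.90%. For Ang4 they were 91.6, 78.0, 84.6 and 9.58%.

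In the Tnfr2-/- TNF library the UMIs instead lay in the class Progenitor.2, with 716 of 858 epithelial cells. It held 70.2% of Reg4, 79.7% of Ang4, 57.1% of Lyz1, 67.8% of Mptx1, 73.2% of Sval1 and 71.2% of Clps UMIs there. Most of its cells had none, since Sval1 was found in 116 of the 716 cells and Ang4 in 28. In the untreated Tnfr2-/- library, 233 Progenitor.2 cells held 0.739% of the Sval1 UMIs and 0.0992% of the Ang4 UMIs.

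**Figure D2:**
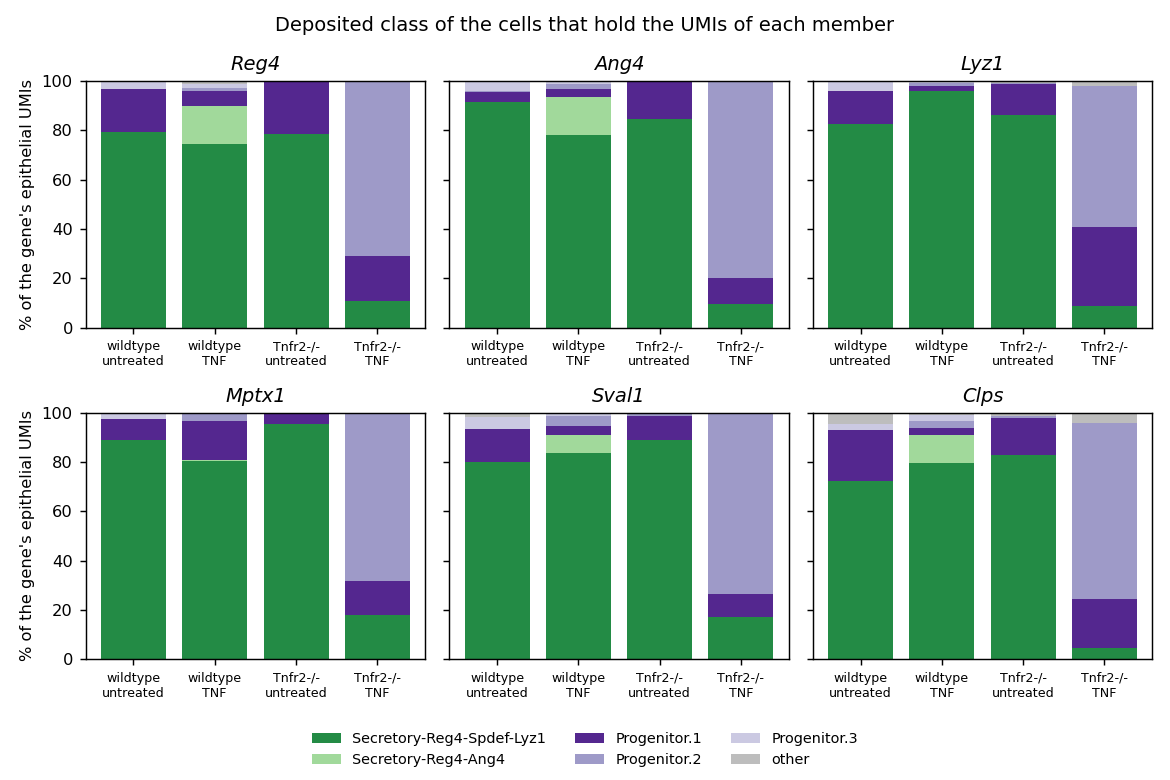
Share of each member's epithelial UMIs held by the deposited classes, in percent, with 1 bar per library. The class Secretory-Reg4-Spdef-Lyz1 holds 72.2 to 96.0% in the first 3 libraries and 4.42 to 18.1% in the Tnfr2-/- TNF library, where Progenitor.2 holds 57.1 to 79.7%.

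Within the class Secretory-Reg4-Spdef-Lyz1, wildtype cells differed between treatments by gene. Ang4 stood at 1012 CPM untreated and 4498 CPM with TNF, and its median per cell went from 1 to 105 UMIs. Clps stood at 228 and 767 CPM. Reg4 stood at 2605 and 1021 CPM, Mptx1 at 1722 and 560 CPM, and Lyz1 at 4051 and 2258 CPM, or -1.35, -1.62 and -0.84 on the log2 scale. Over all epithelium the same pair differed by 0.20, -0.01 and 0.41. The class made up 6.47% of all 1128 wildtype epithelial cells untreated and 9.54% of all 1163 with TNF. The latter base includes the 246 cells of Secretory-Reg4-Ang4, described below. In Secretory-Reg4-Spdef-Lyz1, Sval1 stood at 7756 and 6374 CPM and was found in every cell in all 4 libraries.

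Because only 8 cells of the Tnfr2-/- TNF library bore this class name, cells were also chosen by markers alone. The 13 goblet and deep secretory markers used, among them Spink4, Muc2, Tff3, Agr2 and Spdef, include no member. A cell was taken where these summed to at least 10000 CPM, a level set after the distribution was seen, and the class Secretory-Reg4-Ang4, described below, was left out. This took 90 of 1128 epithelial cells (7.98%, 6.46 to 9.72) in wildtype untreated, 142 of 917 (15.5%, 13.2 to 18.0) in wildtype TNF, 81 of 1023 (7.92%, 6.34 to 9.75) in Tnfr2-/- untreated and 65 of 858 (7.58%, 5.90 to 9.55) in Tnfr2-/- TNF organoids. Of the 65 cells, 53 bore the name Progenitor.2 and 8 the secretory name. Between 23 and 35 cells of a library lay within 2-fold of the limit.

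The intervals of the share that passed overlapped in the untreated wildtype and both Tnfr2-/- libraries, while the members stood at different levels inside these cells. Lyz1 stood at 3165 CPM (3112 to 3218) in wildtype untreated, 1923 (1892 to 1954) in wildtype TNF, 4478 (4404 to 4552) in Tnfr2-/- untreated and 369 (347 to 391) in Tnfr2-/- TNF marker-chosen cells. Reg4 stood at 2081, 920, 1638 and 348 CPM. In the last library both genes were the lowest of the 4, at differences of -3.60 for Lyz1 and -2.23 for Reg4 from Tnfr2-/- untreated cells on the log2 scale.

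Lyz1 was nonetheless found in 44 of the 65 cells there, against 67 of 81 in Tnfr2-/- untreated. Its median was 6 UMIs per cell, against 61. Reg4 was found in 54 of 65 cells, at a median of 7 UMIs, and in 67 of 81 cells at a median of 38. Both transcripts were thus still found in most of the marker-chosen cells.

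Ang4 stood at 718, 4005, 1264 and 579 CPM in the marker-chosen cells in the same library order, Clps at 153, 691, 251 and 270 CPM, and Mptx1 at 1257, 553, 303 and 265 CPM. Sval1 varied least, at 6058, 5785, 5114 and 3251 CPM, and was found in 98.5 to 100% of the cells in 3 libraries and in 97.5% in Tnfr2-/- untreated. In these cells the wildtype TNF difference of Sval1 was -0.067 on the log2 scale, against 1.12 over all epithelium. Reg4 and Mptx1 were lower with TNF in wildtype cells, at -1.18 each.

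**Figure D3:**
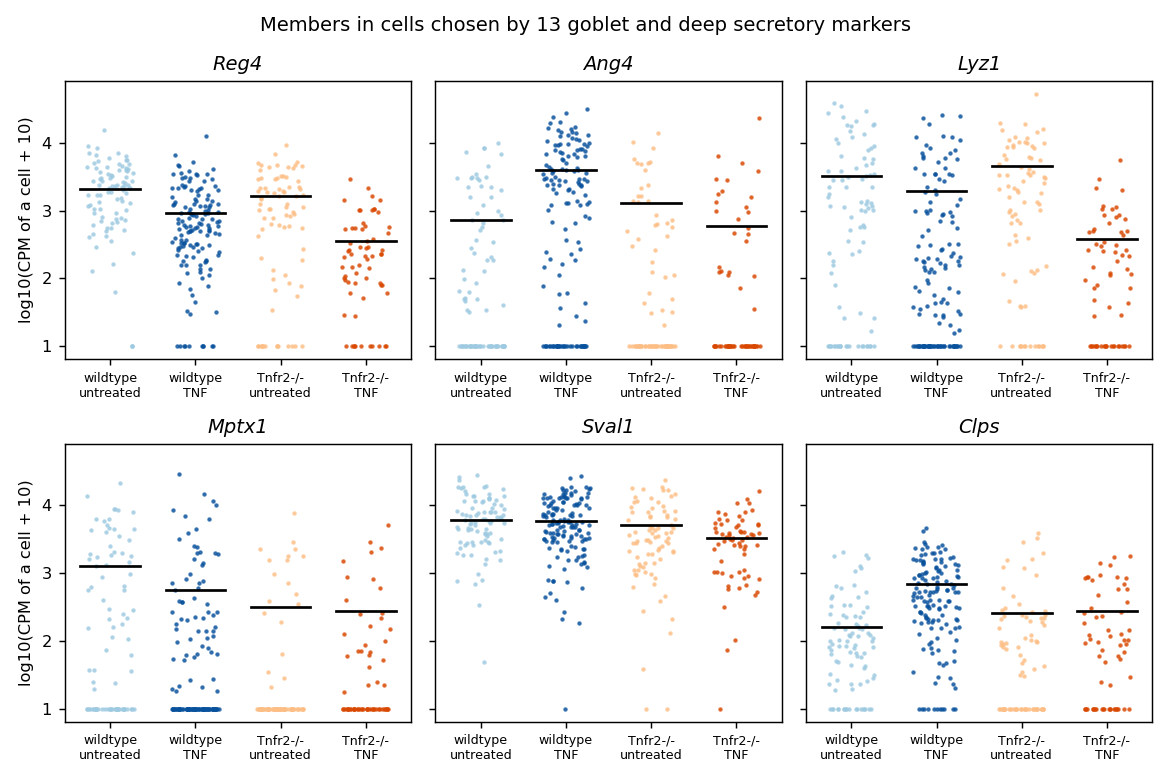
Level of 6 members in each marker-chosen cell, as log10(CPM + 10), with 1 point per cell (90, 142, 81 and 65 cells) and a black line at the level summed over cells. Lyz1 and Reg4 sit lowest in the Tnfr2-/- TNF library, at 369 and 348 CPM, and Ang4 and Clps sit highest in the wildtype TNF library, at 4005 and 691 CPM.

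The choosing markers themselves differed in the same cells. Agr2, a disulfide isomerase needed for mucin folding, stood at 8240, 8087, 6021 and 1577 CPM, and Spdef, a transcription factor of secretory maturation, at 114, 125, 143 and 38.2 CPM. Tff3, a trefoil peptide, stood at 11707, 15701, 23409 and 21965 CPM, and Muc2, the main gel-forming mucin, at 1536, 2038, 467 and 316 CPM. The part of these markers in the result was not tested.

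**Figure D4:**
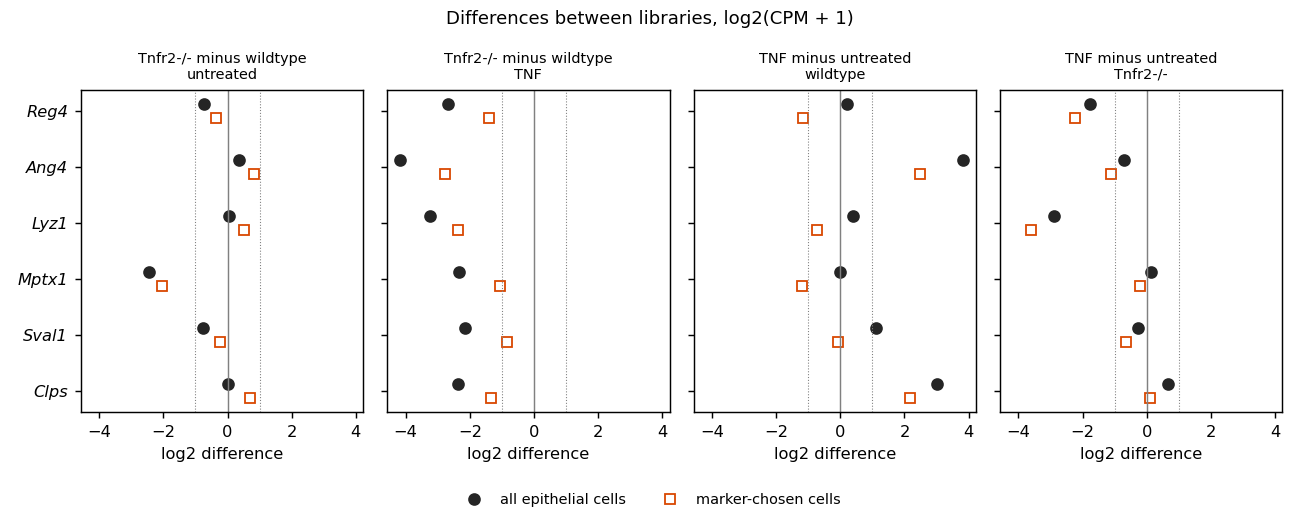
Log2 differences of 6 members in the 4 library pairs, over all epithelial cells (filled) and over marker-chosen cells (open), with dotted lines at 2-fold. In the TNF pair of the genotypes all 6 lie left of 0 in both sets of cells, and Sval1 is the only one inside 2-fold in marker-chosen cells, at -0.83.

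Across the marker-chosen cells of a library, Reg4 and Lyz1 levels had Spearman coefficients of 0.41 over 90 cells, 0.40 over 142, 0.69 over 81 and 0.60 over 65. Ang4 and Mptx1 had coefficients of 0.17, -0.04, 0.15 and 0.11 over the same cells. These coefficients are descriptions, as cells of a library share their source and differ in depth. Cells high for both genes, meaning at least 1000 CPM and 3 UMIs of each and outside the class Secretory-Reg4-Ang4, numbered 14 of 20 Ang4-high and 48 Lyz1-high cells in wildtype untreated. They numbered 30 of 91 and 36 with TNF, 14 of 16 and 51 in Tnfr2-/- untreated, and 4 of 12 and 11 in Tnfr2-/- TNF organoids. Cells high for both thus made up 70.0, 33.0, 87.5 and 33.3% of the Ang4-high cells in library order, and 29.2, 83.3, 27.5 and 36.4% of the Lyz1-high cells.

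The class Secretory-Reg4-Ang4 occurred only in the wildtype TNF library, with 246 cells at a median of 1957.5 UMIs, against 48833 in the other secretory class of that library. Its goblet and deep secretory markers were present, with Spink4 at 30018 CPM, Tff3 at 16046 CPM and Muc2 at 2267 CPM. Ang4 stood at 11505 CPM, Sval1 at 7288 CPM, Reg4 at 2630 CPM and Clps at 1366 CPM, each above the other secretory class of the same library. Lyz1, in contrast, stood at 21.6 CPM (10.8 to 38.6) against 2258 CPM, with at most 1 UMI in any cell, and Mptx1 at 56.9 CPM against 560 CPM, where 26 of its 29 UMIs came from 1 cell. The class carried the RNase and colipase transcripts with 11 lysozyme UMIs in its 246 cells. Since both classes are named for some of these genes, this contrast is a description only.

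Its cells varied less from each other than those of the other secretory class. After each cell was thinned to 1500 UMIs, which kept 199 of its cells, the variance over cells divided by the mean was 2.26 for Ang4, 1.62 for Sval1, 1.35 for Reg4 and 1.16 for Clps. In 110 cells of the other secretory class the same ratios were 13.6, 6.76, 4.23 and 2.86. The median ratio over genes with a mean of at least 1 UMI was 1.06 and 1.22.

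Mesenchymal markers were also high in this class. All 9 were above 0 in it, summing to 1409 CPM, with Grem1 at 487 CPM and Vim at 302 CPM. In the other secretory class of the library the list summed to 9.76 CPM with 3 at 0, and in the mesenchymal class Mesenchyme-Ptges to 13059 CPM. The 7 enteroendocrine markers summed to 885 CPM in Secretory-Reg4-Ang4, with Gcg at 0, against 11.9 CPM in the other secretory class. Absorptive markers were close, at 37.3 against 35.5 CPM. For every 100 Ang4 UMIs Secretory-Reg4-Ang4 held 63.3 Sval1, 22.9 Reg4, 11.9 Clps and 0.188 Lyz1 UMIs. The 81 Ang4 UMIs of Mesenchyme-Ptges cells came with 71.6, 19.8, 9.88 and 7.41 per 100, and the other secretory class had 142, 22.7, 17.1 and 50.2. The part of depth and of RNA from other cell types in the class Secretory-Reg4-Ang4 was not tested. Without the class, the wildtype TNF differences over epithelium were 3.60 for Ang4, 2.86 for Clps and 1.02 for Sval1.

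**Figure D5:**
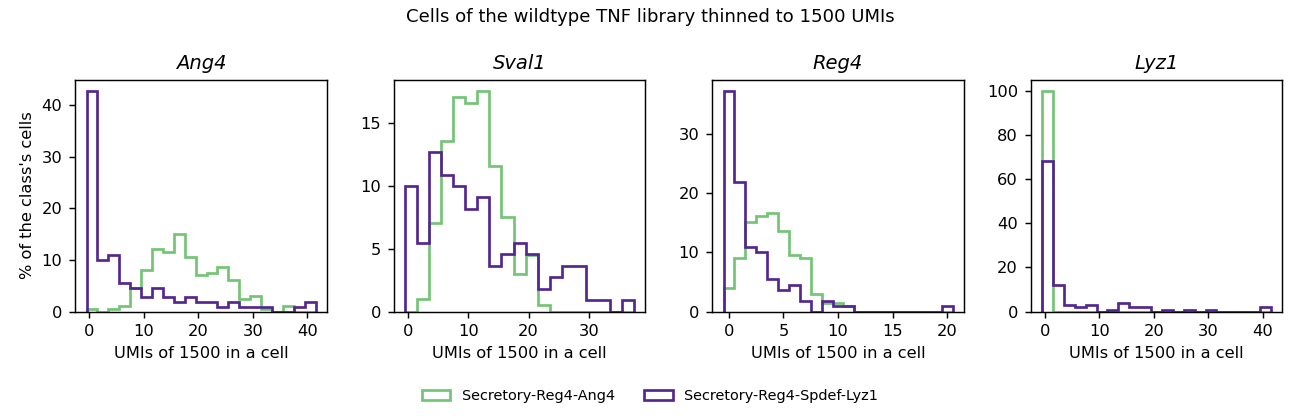
Percent of cells by the number of UMIs of a gene after thinning to 1500 UMIs, in the wildtype TNF library (199 cells of Secretory-Reg4-Ang4 and 110 of Secretory-Reg4-Spdef-Lyz1). Ang4 is spread around a mean of 17.9 UMIs in the first class and piles up near 0 in the second, and Lyz1 does not exceed 1 UMI in the first.

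The promoters of these contrasting members, Ang4 and Lyz1, are shown because their transcripts parted between the secretory classes, which bear their names. They span 250 bases before to 50 after the RefSeq start on GRCm38.p6, 5′ to 3′ on the gene's strand, with Ang4 at chr14:51773541-51773840 (minus strand) and Lyz1 at chr10:117292819-117293118 (minus strand). Capitals mark a STAT-type match (TTCNNNGAA), an NF-kB-type match (GGGNNNTTCC), a TATA box (TATAAA) or a CDX-type match (TTTATG), on either strand.
Ang4: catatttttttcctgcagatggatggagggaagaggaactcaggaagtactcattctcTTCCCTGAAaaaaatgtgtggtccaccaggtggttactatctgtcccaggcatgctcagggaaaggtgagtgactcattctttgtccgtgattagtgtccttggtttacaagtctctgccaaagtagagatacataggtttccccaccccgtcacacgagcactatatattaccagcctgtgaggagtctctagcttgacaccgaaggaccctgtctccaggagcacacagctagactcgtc
Lyz1: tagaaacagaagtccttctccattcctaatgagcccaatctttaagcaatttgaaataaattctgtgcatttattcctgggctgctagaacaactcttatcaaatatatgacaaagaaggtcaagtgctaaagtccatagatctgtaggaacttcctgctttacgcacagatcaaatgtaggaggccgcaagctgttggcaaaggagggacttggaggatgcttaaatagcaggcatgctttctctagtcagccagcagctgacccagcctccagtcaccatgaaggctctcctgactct
Ang4 had 1 STAT-type match, starting at -192 from the start site, and no other capital. Lyz1 had none of the 4. A STAT-type match occurs in 8.3% of the 32851 RefSeq promoters of this length, and in 2 of the 7 members with a promoter in the table. A match is a description of letters and not a site.

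Reg3b and Reg3g, lectins of mucosal defence, lie 92.8 kb apart on chromosome 6 and were highest in TNF-treated Tnfr2-/- organoids. Reg3b had 0, 2, 0 and 465 epithelial UMIs in library order. That is 11.7 CPM (10.7 to 12.8) in the last, 242-fold (66.5 to 2002) the wildtype TNF level by counting error and at least 197-fold that of untreated Tnfr2-/- organoids, taking 3 counts per library as the limit. Both folds rest largely on 1 cell, described next. Reg3g had 5, 52, 50 and 274 UMIs, or 0.0993, 1.26, 0.987 and 6.89 CPM. Neither gene reached the 20 CPM that the counts of members required.

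The UMIs came from few cells. In the Tnfr2-/- TNF library 7 of 858 epithelial cells held Reg3b (0.816%, 0.329 to 1.67), 15 held Reg3g and 6 held both. A Progenitor.1 cell of 114880 UMIs alone held 340 of the Reg3b and 128 of the Reg3g UMIs. Without that cell Reg3b stood at 3.15 CPM (2.62 to 3.76), which is 65.2-fold (17.7 to 544) the wildtype TNF level and at least 53.2-fold that of untreated Tnfr2-/- organoids. Reg3g stood at 3.68 CPM (3.11 to 4.33). The next cell, of Progenitor.2, held 81 and 21 UMIs.

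Few of these cells bore a secretory name. Of the 16 Tnfr2-/- TNF cells with Reg3b or Reg3g, 6 held a Sval1 UMI. In wildtype TNF organoids 13 of 17 did, and there 75.0% of the Reg3g UMIs lay in the class Secretory-Reg4-Spdef-Lyz1, against 22.6% in Tnfr2-/- TNF. Over 27 groups of class and library with at least 20 cells, Reg3g was the gene most like Reg3b, with a Pearson coefficient of 0.85, followed by Tmem64 at 0.53 and Ehmt1 at 0.52. Most of these groups held no Reg3b UMI. Its 66.3 CPM in Progenitor.1 of the Tnfr2-/- TNF library came from 1 cell, so these coefficients rest on few cells.

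The promoters of this pair are shown for comparison, with the same capitals, on chr6:78370635-78370934 (plus strand) for Reg3b and chr6:78468825-78469124 (minus strand) for Reg3g.
Reg3b: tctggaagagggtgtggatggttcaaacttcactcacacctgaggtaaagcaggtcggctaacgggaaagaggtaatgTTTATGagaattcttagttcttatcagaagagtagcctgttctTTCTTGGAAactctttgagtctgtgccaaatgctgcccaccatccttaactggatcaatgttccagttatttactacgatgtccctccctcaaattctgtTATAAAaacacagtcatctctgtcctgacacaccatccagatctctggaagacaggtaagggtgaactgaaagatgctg
Reg3g: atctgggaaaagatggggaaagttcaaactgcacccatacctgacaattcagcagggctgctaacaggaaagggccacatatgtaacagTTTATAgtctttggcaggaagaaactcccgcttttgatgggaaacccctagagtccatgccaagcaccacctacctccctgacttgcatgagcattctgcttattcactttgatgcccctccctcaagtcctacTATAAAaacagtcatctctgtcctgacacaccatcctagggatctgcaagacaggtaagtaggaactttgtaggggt
When aligned end to end the promoters were identical at 69.0% of columns. The value was 46.0% for Ang4 with Reg3b, 49.8% for Ang4 with Lyz1, 49.8% for Reg4 with Reg3b and 82.5% for Lyz1 with Lyz2. Reg3b had a STAT-type match at -129 that Reg3g lacked, and both had a TATA box near the start. A TATA box occurs in 3 of the 7 promoters and in 13.6% of all, an NF-kB-type match in 0 of 7 and 5.6%, a CDX-type match in 1 of 7 and 11.9%, and an E-box (CANNTG) in 7 of 7 and 72.3%.

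Retnlb had 15 UMIs in wildtype untreated, 59 in wildtype TNF, 1 in Tnfr2-/- untreated and 0 in Tnfr2-/- TNF epithelium. The untreated wildtype level was 15.1-fold that of untreated Tnfr2-/- organoids by counting error (2.32 to 635), and the wildtype TNF level was at least 18.9-fold that of Tnfr2-/- TNF. The UMIs lay in 6, 6, 1 and 0 cells, and 36 of the 59 came from 1 cell. Where it occurred, 93.3 and 98.3% of its wildtype UMIs lay in the class Secretory-Reg4-Spdef-Lyz1.

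The members lie on separate chromosomes for the most part. On GRCm38 with the GENCODE M21 annotation, Reg4 (ENSMUSG00000027876) spans 98222156 to 98236748 of chromosome 3, Ang4 (ENSMUSG00000060615) 51763878 to 51773590 of chromosome 14, and Lyz1 (ENSMUSG00000069515) 117287797 to 117292868 of chromosome 10. Sval1 (ENSMUSG00000029865) spans 41951630 to 41956098 of chromosome 6, Mptx1 (ENSMUSG00000026531) 174330518 to 174332873 of chromosome 1, and Clps (ENSMUSG00000024225) 28558149 to 28560766 of chromosome 17. Reg3b (ENSMUSG00000071356) spans 78370657 to 78373466 and Reg3g (ENSMUSG00000030017) 78466269 to 78468872 of chromosome 6, and Retnlb (ENSMUSG00000022650) 48816856 to 48818892 of chromosome 16. All are protein coding.

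Lyz1 has a close copy, Lyz2, 5.5 kb away, and 15 of 411 windows of 90 bases in the last 500 bases of the Lyz1 transcript also occur in Lyz2. Lyz2, the lysozyme of myeloid cells, was at most 0.145 CPM in epithelium and 3.79 CPM in mesenchyme. For the other members with relatives checked, 0 of 411 windows were shared. Of 23 relatives, Ang, Pla2g2f and Pla2g10 reached 5 CPM in an epithelial library. Pla2g10, a secreted phospholipase, stood at 177, 105, 41.9 and 33.5 CPM. It was the 1 of 2 counted relatives lower in both genotype pairs, against 1.41% of all genes.

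Over the same 27 groups, the genes most like Reg4 were Sval1 (Pearson 0.96), Spdef (0.95) and Bcas1 (0.94). Those most like Ang4 were Spink4 (0.97), Tpsg1 (0.94) and Ccl6 (0.93), and those most like Lyz1 were Fcgbp (0.93), Bcas1 (0.91) and Tff3 (0.90). The groups share libraries, so these are descriptions.

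Other genes of the secretory program were counted from lists, leaving the members out. Of the study's deep secretory list, which it takes from a reference atlas of mouse colonic epithelium, 29 genes were counted in both genotype pairs. Of these 5 were lower in Tnfr2-/- in both and 0 higher, against 1.41% and 1.13% of all genes. Klk1, Muc2 and Clec2h led, at -3.03 and -3.42, -2.16 and -4.01, and -2.90 and -2.11 on the log2 scale. The median of the list was -0.02 untreated and -1.20 with TNF, where the medians of all genes were 0.11 and -0.10. Of its 24 genes counted in both TNF pairs 2 were higher with TNF, namely Ndrg1 and Acta1, against 0.92% of all genes.

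Of 8 genes of the study's goblet list, from the same source, 2 were lower in Tnfr2-/- in both pairs, against 1.41% of all genes. They were Zg16, a lectin that aggregates bacteria, at -3.30 and -4.21, and Muc2. None of the 8 was 2-fold different with TNF in both genotypes. None of 7 secretory transcription factors and none of 13 folding and export genes differed by 2-fold in both pairs of either comparison. In the latter list Agr2 stood at 1056, 1888, 618 and 162 CPM, or -0.77 and -3.54 between genotypes.

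Antimicrobial genes outside the members differed in both directions. Of 21 counted between genotypes, 5 were higher in Tnfr2-/- in both pairs, against 1.13% of all genes, and 3 lower, against 1.41%. S100a8, a calprotectin subunit, stood at 0.159, 1.67, 72.3 and 217 CPM, and Lcn2, which binds bacterial siderophores, at 2.44, 5.80, 21.3 and 69.3 CPM. Dmbt1 and Lypd8 were lower, with Lypd8 at 5620, 2470, 675 and 904 CPM.

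With TNF, 5 of 18 were higher in both genotypes, against 0.92% of all genes, and none lower, against 0.0721%. Nos2, the inducible nitric oxide synthase, stood at 1.63, 139, 34.0 and 260 CPM, and Slpi, a protease inhibitor, at 50.1, 394, 108 and 397 CPM. In the Tnfr2-/- TNF library, where Reg4, Ang4, Lyz1 and Sval1 were lowest, S100a8, Lcn2 and Nos2 were thus highest. Other genes of the same list went the other way, with Zg16 and Lgals4 lowest there, at 16.8 and 1783 CPM.

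Of 3 Paneth cell markers counted 1, Nupr1, was higher with TNF in both genotypes, against 0.92% of all genes. It stood at 640, 1448, 870 and 2865 CPM. None of the 3 differed in both genotype pairs, where 1.13% of all genes were higher and 1.41% lower. The fixed Paneth markers Defa24, Defa30, Itln1, Mmp7 and Mptx2 together summed to 66.0, 316, 210 and 166 CPM in epithelium. Of these, Mptx2 was at 0 in all 4 libraries and Defa30 in both Tnfr2-/- ones, and the others were above 0 in every library. Of the STAT3 and IL-22 response genes none of 4 counted between genotypes and none of 6 counted for TNF differed by 2-fold in both pairs. None of 5 IL-4 and IL-13 response genes did in either comparison.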

How the data were processed

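Single-cell 3' RNA was measured in 4 organoid cultures. The authors aligned reads to mm10 with Cell Ranger 5.0.0 per the labels, and deposited a matrix of UMI counts per gene and cell with an annotation of cell classes. The deposited size factor of each cell, a score, was not used. Counts were summed over the cells of a library or class and divided by the summed UMIs to give CPM. Intervals are exact Poisson (levels) and Clopper-Pearson (shares) at 95%. The minimum of 20 CPM, the 2-fold limit and the pseudocount of 1 CPM apply throughout. The counting across genes was tested on simulated data, but the outcome is not given here and no result rests on it. The members and lists were chosen with earlier results of these data known, and the genes named are all members, up to 3 genes at each end of each list in both pairs, cell type markers, relatives at 5 CPM, Tnfrsf1b, Xist and the 3 genes most like each of 4 members. The marker-chosen cells, and Reg3b without its highest cell, were added after seeing the data. The paper states that cells under 100 UMIs, mesenchymal clusters and epithelial-mesenchymal doublets were filtered out in its own analysis. The deposited cells used here still include mesenchymal cells and 35 cells without a class. Scrublet in scanpy 1.11.5 called 46 of the 6155 cells, which were kept, and TMM factors came from edgeR 4.0.16. Epithelial totals were 39776200 to 50648200 UMIs per library, cells with 894 or more UMIs. Sequences are from RefSeq (GRCm38.p6), with 7 of the 10 members found.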

Additional observations from a re-analysis of the deposited data

Results flagged for a closer look

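In 4 members the difference between TNF and untreated cultures had opposite signs in the genotypes, with counting intervals that did not overlap. The wildtype difference minus the Tnfr2-/- difference was 4.52 on the log2 scale for Ang4, 3.28 for Lyz1, 1.96 for Reg4 and 1.40 for Sval1. With 1 culture per group, these differences were not tested. In marker-chosen cells only Ang4 of these 4 kept opposite signs, at 2.48 in wildtype and -1.13 in Tnfr2-/-. There the differences were -1.18 and -2.23 for Reg4, -0.72 and -3.60 for Lyz1, and -0.067 and -0.65 for Sval1.

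The 35 cells to which the annotation gives no class, 31 of them in the wildtype untreated library and 4 in the Tnfr2-/- untreated library, also held members. Together they had 940 UMIs of Sval1, 455 of Lyz1, 307 of Reg4, 117 of Ang4, 27 of Mptx1 and 22 of Clps. They were concentrated, with 413 of the Lyz1 UMIs and 487 of the Sval1 UMIs in 1 cell each. The doublet caller marked 25 of the 35, against 4 of all 4172 epithelial cells.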

How the results depend on the processing

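Each group was 1 culture, so leaving out a replicate could not be done. No paired analysis was possible because the groups have 1 library each and no test was run. Counting error is small for the 6 expressed members and large for Reg3b, Reg3g and Retnlb.

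Of 23 differences of members over epithelial cells, 12 were at least 2-fold. All 12 stayed so under both pseudocounts, TMM, median-of-ratios, the mean over cells, cells with at least 5000 UMIs, all cells of a library, and without doublets, the class Secretory-Reg4-Ang4 or the 5 highest cells. With equal weights for classes 6 did, and in progenitor classes alone 3 did, and in marker-chosen cells, a setting chosen after seeing the data, 10 did. Equal weights use classes with 20 cells in both libraries, which leaves the class Secretory-Reg4-Spdef-Lyz1 out of both pairs with the Tnfr2-/- TNF library.

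Of all 23, 13 kept their sign with equal weights and 11 in progenitor classes. Among the 12, these turned sign with equal weights. The Tnfr2-/- TNF difference became 1.10 for Reg4 and 1.18 for Lyz1. The genotype difference with TNF became 1.37 for Lyz1, 0.42 for Sval1 and 0.81 for Clps, and the wildtype TNF difference of Sval1 became -0.34. In progenitor classes the genotype difference with TNF became 0.24 for Reg4, 0.96 for Lyz1, 0.76 for Sval1 and 0.74 for Clps, the Tnfr2-/- TNF difference of Reg4 became 0.18, and the wildtype TNF difference of Sval1 became -0.34. In marker-chosen cells the last was -0.042 with the class Secretory-Reg4-Ang4 and -0.067 without it.

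Members lower in both genotype pairs numbered 1, but 0 with equal weights, in progenitor classes or in marker-chosen cells with the class Secretory-Reg4-Ang4, and 3 at 1.5-fold. Members higher with TNF in both genotypes numbered 0, but 2 with equal weights, and 1 in progenitor classes, with no minimum or at 1.5-fold. Members lower with TNF in both numbered 0, but 1 in marker-chosen cells with or without that class. The shares of all genes under these changed settings are not given here. These counts therefore describe the settings and are not read as results about the members. Causes were not tested beyond the cells each setting uses.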
